A study of Mus musculus with 6 samples.

Results

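The testis pathway is the set of genes through which the early gonad, which can become either sex, forms a testis. Its 9 genes described here were the transcription factor genes Sox9, Sox8 and Dmrt1, the secreted signal genes Amh, Fgf9 and Gdnf, and the genes Ptgds, Cst9 and Aard, each of them known from Sertoli cells, the supporting cells of the testis. They were chosen by symbol, and all 9 were found among the 47122 gene models of the deposited table. Their levels were measured by RNA sequencing of whole mouse ovaries at 1 day post partum, in 3 wild-type (WT) samples and in 3 samples of a conditional knockout (cKO) in which oocytes lack Bcas2, a subunit of the PRP19 splicing complex. The series compares ovarian gene expression between these groups. The Cre driver, the deleted exons, the strain, any allele that the WT animals carry and whether ovaries were pooled are all details not given in the sources used here. A description field speaks of granulosa cells, while title, tissue and design all name the ovary.

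In an XY gonad the Y-linked gene Sry switches on Sox9 in the supporting cells, and Sox9 and its relative Sox8 then keep these cells on the Sertoli path. FGF9 and prostaglandin D2, which is made by the Ptgds product, help to maintain Sox9, while anti-Müllerian hormone (AMH) removes the Müllerian ducts and GDNF later sustains spermatogonial stem cells. In the ovary the same supporting cells become granulosa cells under Foxl2 and Wnt signals, and they start to make AMH only when follicles grow. Dmrt1 is also expressed by germ cells.

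Levels are given as FPKM, which scales fragments by the length of the gene and the size of the library, to allow comparison between genes. That comparison has limits here. Among the listed housekeeping genes, Gapdh was at 1.09 to 3.68 FPKM over the libraries, while Actb was at 446.6 to 515.0 FPKM. Whether the deposited counting lowers some genes was not tested. A gene was counted as expressed when it reached 1 FPKM in at least 3 of the 6 libraries, and as near zero when it lay under 0.1 FPKM in all 6. By this rule 6 of the 9 genes were expressed: Aard, Ptgds, Cst9, Sox8, Fgf9 and Sox9. The other 3, Amh, Gdnf and Dmrt1, stayed below it. None of the 9 met the near-zero rule and none was at 0 in any library. Of the 22186 protein-coding gene models, 55.9% were expressed by the same rule and 22.8% were near zero. Sry itself was listed at 0 in all 6 libraries, where a count of 0 allows up to 3 reads, or 0.129 to 0.150 FPKM.

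**Figure D1:**
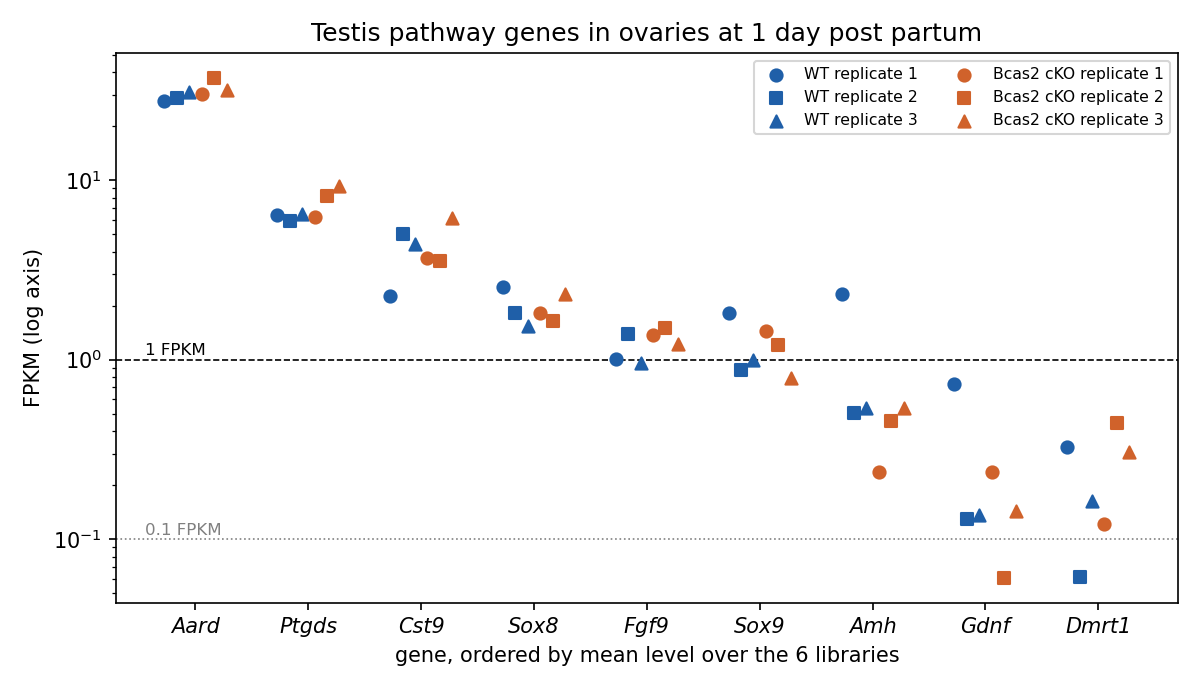
FPKM (log axis) of the 9 testis pathway genes in each of the 3 WT libraries (blue) and 3 Bcas2 cKO libraries (orange), 1 point per library, with genes ordered by their mean. Aard stands above 27 FPKM in every library, while Amh, Gdnf and Dmrt1 lie below 1 FPKM except for Amh in WT replicate 1.

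In order of mean level over the 6 libraries, Aard stood at 31.1 FPKM, Ptgds at 7.08, Cst9 at 4.18, Sox8 at 1.95, Fgf9 at 1.24, Sox9 at 1.19, Amh at 0.767, Gdnf at 0.240 and Dmrt1 at 0.236 FPKM. Aard was 4.39 times as high as Ptgds, and the ranges of these genes over the libraries did not overlap. Ptgds was above Cst9 in 6 of 6 libraries and Cst9 above Sox8 in 5, with overlapping ranges in both cases. Sox8 exceeded Fgf9 in 6 of 6 libraries, and the lowest Sox8 value, 1.54 FPKM, was just above the highest Fgf9 value, 1.50 FPKM. Fgf9 and Sox9 did not differ beyond their spread, each being the higher in 3 libraries, and the same held for Gdnf and Dmrt1. Sox9 was above Amh, and Amh above Gdnf, in 5 of 6 libraries each, with overlapping ranges. Without WT replicate 1 the Amh mean was 0.455, that of Gdnf 0.142 and that of Dmrt1 0.219 FPKM, so that Gdnf came last. Aard lay above 90.1% of protein-coding gene models by its mean, Sox8 above 49.5%, Sox9 above 45.3% and Dmrt1 above 33.6%.

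Before the groups were compared, 2 libraries were found to stand apart. WT replicate 1 gave the highest value for 27.6% of the 14589 tested genes and the lowest for 28.7%, where the other libraries gave the highest for 9.71% to 21.5%. All 6 endothelial markers and all 8 stroma and pericyte markers were highest in it. Of the 9 testis pathway genes, Sox9, Sox8, Amh and Gdnf were highest in WT replicate 1, and Cst9 and Aard were lowest there. cKO replicate 2 differed in red blood cell genes: its 6 erythroid markers summed to 13231 FPKM, against 400.2 to 1201 FPKM in the other 5 libraries, and all its values summed to 403702.9 FPKM, against 343994.6 to 363209.1. Dmrt1, Fgf9 and Aard were highest in it, and its part in their values was not tested. Leaving it out gave 1 called gene over the whole table. Recovered reads per library numbered 16800421 to 19565275. Bcas2 checked the labels: it measured 54.5, 37.5 and 35.7 FPKM in the WT libraries and 18.9, 21.9 and 18.3 FPKM in the cKO libraries, without overlap (limma adjusted p = 0.955 over all genes, exact permutation p = 0.1, the smallest possible with 3 against 3). Markers of the labelled tissue were present, and all 16 ovary pathway genes and all 8 germ cell markers passed the filter.

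Between the groups, the 6 tested genes gave 0 that rose, 0 that fell and 6 that did not pass an adjusted p of 0.05 in limma, where the background was also 0% of 14589 genes. At an unadjusted p under 0.05 there were 0 of these 6, against 443 genes or 3.04% of all tested, and limma-voom on recovered reads made 0 calls, while 379 genes had an unadjusted p under 0.05 in it. None of the 9 genes had groups without overlap, against 7.88% of all tested genes. The exact two-sided permutation test, here and throughout, compared group means of log2(FPKM + 1), not of FPKM. Its p for the 9 genes lay between 0.2 and 0.9 (9 tests, smallest possible p 0.1, not adjusted). The median log2 fold change of the 6 was 0.17, beside −0.0058 over all tested genes. Fold changes are cKO over WT on the log2(FPKM + 1) scale, which understates changes at low levels. In whole ovaries, fewer cells of a type and less RNA per cell cannot be told apart.

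**Figure D2:**
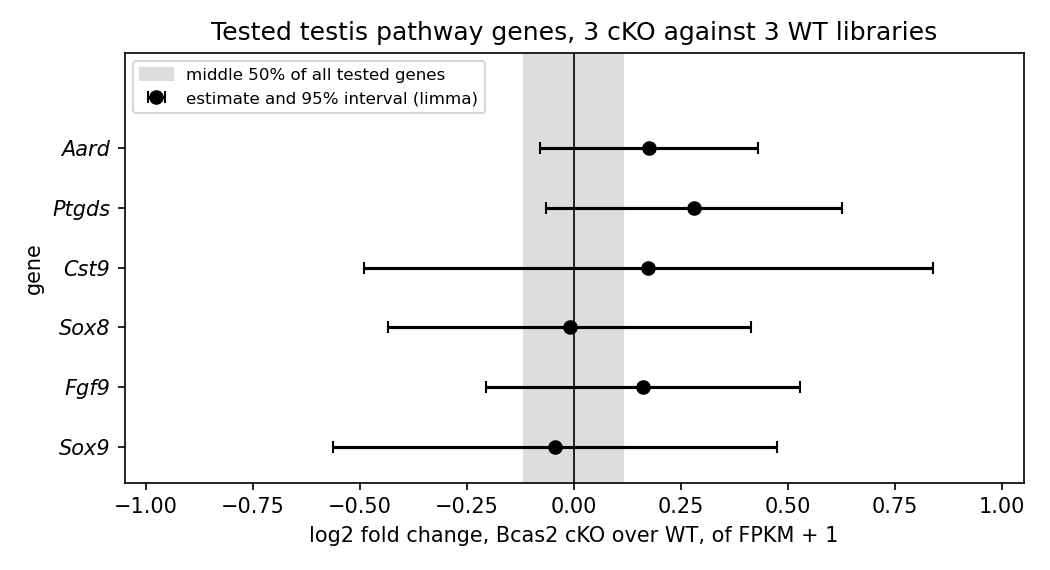
Log2 fold change (Bcas2 cKO over WT, of FPKM + 1) of the 6 tested testis pathway genes with limma's 95% intervals, 3 libraries a group, and a grey band for the middle 50% of all tested genes (−0.12 to 0.11). All 6 intervals include 0, and that of Cst9 reaches from −0.49 to 0.84.

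Positions below are GRCm39 coordinates of the deposited table, with its gene identifiers. Sox9, the HMG-box transcription factor at the centre of Sertoli cell fate, lies on chromosome 11 from 112673036 to 112678583 on the plus strand (identifier 20682). It measured 1.83, 0.875 and 1.00 FPKM in WT replicates 1, 2 and 3 and 1.44, 1.20 and 0.794 FPKM in the cKO libraries replicates 1, 2 and 3. The groups overlapped, with WT replicate 1 highest and cKO replicate 3 lowest. These values rest on 61 to 132 recovered reads a library. The group means were 1.23 ± 0.517 FPKM in the WT libraries and 1.15 ± 0.328 FPKM in the cKO libraries (SD, n = 3 each), with a log2 fold change of −0.045 (95% interval −0.56 to 0.47, SE 0.22, limma adjusted p = 0.986). Without WT replicate 1 the sign turned, to 0.14, and without cKO replicate 3 it was 0.079. Sox9 was at or above 1 FPKM in 4 libraries, WT replicate 3 only just.

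Sox8, a relative of Sox9 of the same SoxE group that can partly stand in for it, lies on chromosome 17 from 25784865 to 25789666 on the minus strand (identifier 20681). It was at 2.54, 1.82 and 1.54 FPKM in the WT libraries and at 1.82, 1.65 and 2.32 FPKM in the cKO libraries. It was above Sox9 in every library, and WT replicate 1 and cKO replicate 3 were the high ones in their groups. The means were 1.97 ± 0.520 and 1.93 ± 0.352 FPKM (SD, n = 3 each), with a log2 fold change of −0.011 (95% interval −0.43 to 0.41, SE 0.18, limma adjusted p = 0.996). The sign turned without WT replicate 1 (0.12). Sox10, the remaining SoxE gene and a marker of glia, was between 0.0398 and 0.338 FPKM, with its highest value in WT replicate 1.

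Sox8 has a close neighbour, the long noncoding RNA gene Cerox1, which starts 118 bases from it on the opposite strand in the deposited coordinates, so that the stretch between the starts is the upstream region of both. It is shown because it lies between 2 genes whose levels in these libraries can be set side by side. The bases between the starts, on the Sox8 strand and from the RefSeq promoter table of GRCm38.p6 (chr17:25570687-25570810, where the annotated starts are 124 bases apart), read 5′ to 3′, with capitals for each GGGCGG, the GC box, searched on both strands:
Sox8 upstream stretch: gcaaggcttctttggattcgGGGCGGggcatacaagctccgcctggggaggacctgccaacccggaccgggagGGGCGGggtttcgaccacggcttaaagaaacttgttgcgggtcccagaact
It holds 2 GC boxes and 9 CG dinucleotides, and 26.8% of all 32851 promoters in the table hold a GC box in the same 124 bases before the start. Cerox1 was at 4.56, 2.74 and 2.50 FPKM in the WT libraries and at 3.36, 2.78 and 3.41 FPKM in the cKO libraries. In both genes WT replicate 1 was the highest library, WT replicate 3 the lowest and cKO replicate 3 the highest of its group. By likeness of profile, Cerox1 ranked 361 of 14588 genes for Sox8. The deposited counting is not stated to use strand.

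Of the 9 genes, 5 had a promoter in that table, with 6 windows of 300 bases in all, 250 before and 50 after the start. Sox8 and the downstream of 2 Gdnf windows were rich in CG dinucleotides, with 21 and 22, and the upstream Gdnf window and that of Fgf9 held 11 and 12. Ptgds and Cst9, the members expressed above 2 FPKM in every library that have a window, held only 2 and 3, below the median of 7 over all promoters. The core letters of SOX binding sites, ACAAT, on either strand, stood in 1 of the 6 windows, the downstream one of Gdnf, and in 31.0% of all promoters.

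Dmrt1, a DM-domain transcription factor that maintains the male fate of Sertoli cells after birth, lies on chromosome 19 from 25482982 to 25581692 on the plus strand (identifier 50796). It measured 0.325, 0.0611 and 0.163 FPKM in the WT libraries and 0.122, 0.441 and 0.306 FPKM in the cKO libraries. Both groups had high and low libraries, and no library reached 1 FPKM. The reads behind these values were 16, 3 and 9 in WT and 6, 21 and 16 in cKO. The exact 95% Poisson intervals reached from 0.619 to 8.77 reads in WT replicate 2 and from 13.0 to 32.1 reads in cKO replicate 2; they cover counting error only. Group means were 0.183 ± 0.133 and 0.290 ± 0.160 FPKM (SD, n = 3 each), with an exact permutation p of 0.5. The ratio of cKO to WT was 1.58. It became 2.59 on leaving out WT replicate 1, and 1.17 on leaving out cKO replicate 2. Germ cells, which also express Dmrt1, were well represented: the 8 germ cell markers summed to 874.5 to 1307 FPKM in the WT libraries and 980.9 to 1277 FPKM in the cKO libraries, and none of them was at 0. Whether the Dmrt1 reads come from germ cells was not tested.

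Amh, which encodes anti-Müllerian hormone, lies on chromosome 10 from 80641074 to 80643513 on the plus strand (identifier 11705). It measured 2.32, 0.507 and 0.541 FPKM in the WT libraries and 0.236, 0.453 and 0.539 FPKM in the cKO libraries. The WT value of 2.32 FPKM stood apart, at 4.30 times the highest of the other 5 libraries, and these 5 ran from 0.236 to 0.541 FPKM, with cKO replicate 1 the lowest and overlap between the groups. In reads it was 69 against 7 to 18, and the 95% Poisson interval of 53.7 to 87.3 reads did not reach those of the other libraries. The means were 1.12 ± 1.04 FPKM in the WT libraries and 0.409 ± 0.156 FPKM in the cKO libraries (SD, n = 3 each), with an exact permutation p of 0.2. The ratio of cKO to WT was 0.364, and 0.782 without WT replicate 1. Sf3a2, a splicing factor gene that ends 317 bases upstream on the same strand, was at 33.2 FPKM in WT replicate 1, its lowest library, and at 37.4 to 49.97 FPKM elsewhere. Jsrp1, 816 bases downstream on the opposite strand, was at 0.539 FPKM in that library and at 0.232 to 0.801 FPKM in the others.

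Gdnf, the ligand of the GFRA1 and RET receptors, lies on chromosome 15 from 7839529 to 7867061 on the plus strand (identifier 14573). It was at 0.731, 0.130 and 0.137 FPKM in the WT libraries and at 0.236, 0.0610 and 0.144 FPKM in the cKO libraries. As with Amh, WT replicate 1 was far above the rest, at 3.09 times the highest of them, and the other 5 libraries overlapped between the groups. The reads were 62, 11 and 13 in WT and 20, 5 and 13 in cKO, with a 95% Poisson interval of 47.5 to 79.5 reads in WT replicate 1. Group means were 0.333 ± 0.345 and 0.147 ± 0.0877 FPKM (SD, n = 3 each), with an exact permutation p of 0.7. The ratio of cKO to WT, 0.443, became 1.10 without WT replicate 1. Among the 16872 gene models with at least 100 reads in sum, 173 (1.03%) had more than 3 times the highest other library in WT replicate 1, and 71 (0.421%) more than 4 times. Amh ranked 64 and Gdnf 156 by that ratio.

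**Figure D3:**
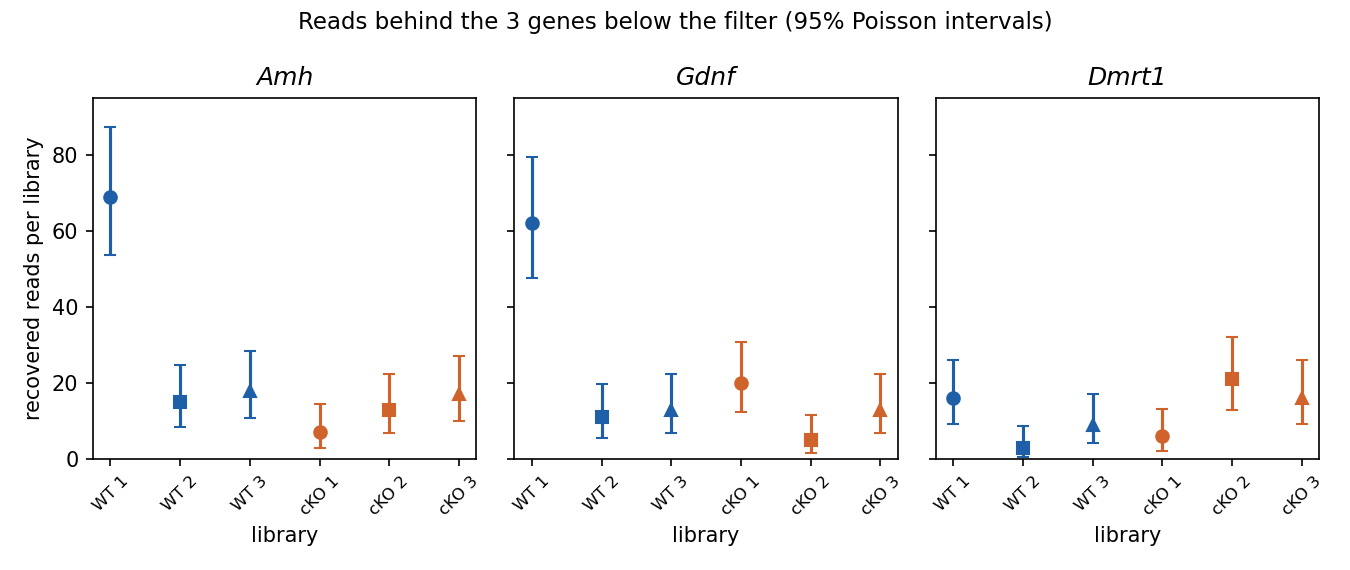
Recovered reads of Amh, Gdnf and Dmrt1 in each library (WT blue, Bcas2 cKO orange) with exact 95% Poisson intervals, which cover counting error only. WT replicate 1 stands at 69 reads for Amh and 62 for Gdnf, above every other library, and at 16 for Dmrt1, within the range of the others.

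Fgf9, which signals through FGF receptors, lies on chromosome 14 from 58308131 to 58350311 on the plus strand (identifier 14180). It was at 1.02, 1.39 and 0.961 FPKM in the WT libraries and at 1.37, 1.50 and 1.23 FPKM in the cKO libraries. WT replicate 2 lay within the cKO range and the other WT libraries below it. The means were 1.12 ± 0.235 and 1.37 ± 0.137 FPKM (SD, n = 3 each), with a log2 fold change of 0.16 (95% interval −0.21 to 0.53, SE 0.15, limma adjusted p = 0.955). It was 0.12 without cKO replicate 2, the highest library. Unlike Amh and Gdnf, Fgf9 was not raised in WT replicate 1, where it stood at 0.740 times the median of the other 5 libraries.

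Ptgds, the lipocalin-type prostaglandin D2 synthase, lies on chromosome 2 from 25356721 to 25360141 on the minus strand (identifier 19215). It measured 6.43, 5.90 and 6.45 FPKM in the WT libraries and 6.26, 8.19 and 9.25 FPKM in the cKO libraries. cKO replicates 2 and 3 were above all WT libraries, and cKO replicate 1 lay inside the narrow WT range. The means were 6.26 ± 0.316 and 7.90 ± 1.52 FPKM (SD, n = 3 each), with a log2 fold change of 0.28 (95% interval −0.066 to 0.63, SE 0.15, limma adjusted p = 0.955, exact permutation p = 0.3).

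Cst9, which encodes a secreted protein of the cystatin family, lies further along chromosome 2, from 148677067 to 148680657 on the plus strand (identifier 13013). It was at 2.26, 5.04 and 4.40 FPKM in the WT libraries and at 3.69, 3.55 and 6.14 FPKM in the cKO libraries, on 27 to 78 reads. WT replicate 1 was the low library, at 0.513 times the median of the others. The means were 3.90 ± 1.46 and 4.46 ± 1.46 FPKM (SD, n = 3 each), with a log2 fold change of 0.17 (95% interval −0.49 to 0.84, SE 0.28, limma adjusted p = 0.962). Without WT replicate 1 it was −0.097, and without cKO replicate 3 it was −0.036. Cst9 belongs to a family of related cystatin genes, and reads shared with a close relative could be split by the deposited counting.

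Aard, a gene for an alanine- and arginine-rich protein, lies on chromosome 15 from 51903503 to 51909118 on the plus strand (identifier 239435). It was at 27.6, 28.7 and 30.9 FPKM in the WT libraries and at 30.2, 37.2 and 31.9 FPKM in the cKO libraries. Its libraries varied least of the 9 genes, with a coefficient of variation of 10.8% over the 6, against 17.5% for Fgf9 and 103% for Gdnf. The means were 29.1 ± 1.70 and 33.1 ± 3.64 FPKM (SD, n = 3 each), with a log2 fold change of 0.18 (95% interval −0.080 to 0.43, SE 0.11, limma adjusted p = 0.955, exact permutation p = 0.2). The fold change was 0.14 when WT replicate 1 was left out and 0.091 when cKO replicate 2 was. Its 649 to 843 reads a library make it the most deeply counted of the 9. No other gene of the table overlaps any of the 9, and only Sox8 and Amh have a neighbour within 1 kb.

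The receptors and partners of these signals were mostly expressed. Of 18 listed genes 12 were tested, with 0 rising, 0 falling and 12 not passing the test. Their median log2 fold change was −0.15, which became 0.0071 without WT replicate 1. Amhr2, the type II receptor of AMH, stood at 109.2 ± 13.3 FPKM in the WT libraries and 117.2 ± 12.1 FPKM in the cKO libraries. Its partner Bmpr1a stood at 48.7 ± 2.42 and 45.7 ± 5.53 FPKM, and Smad5, a mediator of that signal, at 36.1 ± 11.9 and 28.6 ± 4.77 FPKM (SD, n = 3 each). So the AMH receptor was far above its ligand in every library. Fgfr1 was at 23.0 ± 3.83 and 20.6 ± 0.620 FPKM. Fgfr4 measured 4.43, 1.51 and 0.519 FPKM in the WT libraries and 1.51, 0.673 and 0.821 FPKM in the cKO libraries, so WT replicate 1 was the high one, and the ratio of cKO to WT was 0.465 with it and 0.986 without it. The prostaglandin E synthase gene Ptges was at 8.40 ± 1.01 and 6.69 ± 1.52 FPKM. The prostaglandin D2 receptor genes Ptgdr and Ptgdr2 were under 0.1 FPKM in all 6 libraries, while Gfra1 and Ret, the receptors of GDNF, stayed below 1 FPKM in each.

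Other testis determination genes included both regulators of the early gonad, shared by both sexes, and Sry, listed at 0. Of 20 listed genes 12 were tested, and 0 rose, 0 fell and 12 did not pass. The median log2 fold change was −0.098, and −0.018 without WT replicate 1. The gonadal transcription factors Wt1 (135.1 ± 22.9 and 122.3 ± 10.1 FPKM in WT and cKO), Gata4 (84.97 ± 22.5 and 69.2 ± 9.21 FPKM) and Nr5a1 (40.1 ± 6.19 and 42.4 ± 2.01 FPKM) were well expressed in both groups (SD, n = 3 each). Groups did not overlap for 2 of the 12, or 16.7%, beside the 7.88% of all tested genes. These were Map3k4, a kinase upstream of Sry, at 18.3 ± 0.546 and 15.6 ± 1.44 FPKM, and Nr0b1, a nuclear receptor gene, at 7.70 ± 1.94 and 9.70 ± 0.256 FPKM (limma adjusted p = 0.955 each). Etv5 was at 3.43 ± 1.57 and 2.34 ± 0.563 FPKM.

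Among 24 other genes listed for fetal Sertoli cells, 16 were tested, with 0 rising, 0 falling and 16 not passing the test. Their median log2 fold change was 0.15, and 0.10 without WT replicate 1. The most abundant were Clu, a secreted chaperone, at 131.3 ± 39.1 and 132.1 ± 23.2 FPKM, Slc9a3r1, a membrane scaffold, at 27.9 ± 10.9 and 33.1 ± 2.45 FPKM, Inha, the inhibin alpha subunit, at 28.1 ± 4.80 and 26.9 ± 3.29 FPKM, and Dmrta1 at 23.8 ± 2.81 and 23.7 ± 3.81 FPKM (SD, n = 3 each). Many of these genes are also known from granulosa cells. Groups did not overlap for 3 of the 16, or 18.8%, beside 7.88% of all tested genes: Rhox8, Defb19 and Mro. Rhox8, a homeobox gene, was at 4.997, 5.61 and 7.40 FPKM in the WT libraries and at 9.60, 9.95 and 10.4 FPKM in the cKO libraries, with a limma adjusted p of 0.955. Defb19, a beta-defensin gene of the early gonad, was at 9.47, 10.2 and 12.3 FPKM in the WT libraries and at 12.4, 20.8 and 14.4 FPKM in the cKO libraries, with the same adjusted p in limma. The receptor gene Fshr was under 0.1 FPKM in all 6 libraries, and Etd was listed at 0 in all 6.

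The 16 listed ovarian counterparts all passed the filter and were tested, with 0 rising, 0 falling and 16 not passing the test. Their median log2 fold change was −0.064, and −0.030 without WT replicate 1. Foxl2, which opposes Sox9 in granulosa cells, was at 115.6 ± 42.3 FPKM in the WT libraries and 95.3 ± 11.9 FPKM in the cKO libraries. The beta-catenin gene Ctnnb1 was at 255.2 ± 18.8 and 242.3 ± 16.1 FPKM, Irx3 at 73.97 ± 16.2 and 75.5 ± 5.45 FPKM, Kitl at 76.1 ± 21.98 and 69.5 ± 15.5 FPKM and Runx1 at 11.5 ± 3.27 and 8.48 ± 1.17 FPKM (SD, n = 3 each). Without WT replicate 1 the ratio of cKO to WT was 1.04 for Foxl2, 1.09 for Kitl and 0.844 for Runx1, against 0.824, 0.912 and 0.738 with it. Rspo1, a Wnt activator, was the 1 gene of the 16 without overlap, or 6.25% beside 7.88% of all tested genes, at 61.2 ± 8.84 and 78.2 ± 2.59 FPKM (limma adjusted p = 0.955).

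Markers of other cell types moved with the library in which Amh, Gdnf, Sox9 and Sox8 were highest. Summed over 6 endothelial markers, the level was 115.5 FPKM in WT replicate 1, 25.6 and 39.5 FPKM in the other WT libraries and 27.9 to 37.6 FPKM in the cKO libraries, and all 6 were highest in WT replicate 1. Stroma and pericyte markers summed to 499.0 FPKM in that library, against 172.5 and 260.6 in the other WT libraries and 202.0 to 249.3 FPKM in the cKO libraries, with all 8 highest in it. Glia and Schwann cell markers summed to 23.3 FPKM there and to 13.4 to 16.1 FPKM in the other 5, and 3 of the 9 were highest in it. The 8 surface epithelium markers went the other way, at 338.6 FPKM in WT replicate 1 and 476.7 to 631.6 FPKM elsewhere, with 6 lowest in it. No marker of these lists was at 0 in all libraries. Their part in the Amh, Gdnf, Sox9 and Sox8 values was not tested.

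Other lists were set beside the expressed genes. Cartilage markers, some of them known targets of Sox9, summed to 2.26 to 2.70 FPKM in the WT libraries and 3.08 to 3.76 FPKM in the cKO libraries. None of the 8 passed the filter, and each of them overlapped between the groups. Cnmd, the most abundant, was at 0.930, 0.350 and 0.623 FPKM in the WT libraries and at 1.83, 1.12 and 0.912 FPKM in the cKO libraries. Sox5 was the only cartilage marker with a lower cKO mean, at 0.796 ± 0.174 and 0.603 ± 0.113 FPKM. Leydig and steroid cell markers summed to 42.3 to 51.0 FPKM in the WT libraries and 44.0 to 53.0 FPKM in the cKO libraries, with Hsd3b1 the most abundant, at 31.9 ± 6.11 and 34.1 ± 3.73 FPKM (SD, n = 3 each). Groups did not overlap for 2 of the 6 tested, or 33.3%, beside 7.88% of all tested genes. These were Star, which brings cholesterol into mitochondria, at 4.62 ± 0.847 and 5.82 ± 0.611 FPKM, and the luteinizing hormone receptor gene Lhcgr at 0.874 ± 0.158 and 1.33 ± 0.291 FPKM (limma adjusted p = 0.955 each). Lhcgr measured 0.712, 0.882 and 1.03 FPKM in the WT libraries and 1.12, 1.20 and 1.66 FPKM in the cKO libraries. But for WT replicate 3, it entered the test only through its cKO level, so it adds no support to that share. The fetal Leydig hormone gene Insl3 stayed between 0 and 0.489 FPKM. Mesonephros and oviduct epithelium markers summed to 79.2 to 92.4 FPKM in the WT libraries and 85.7 to 104.6 FPKM in the cKO libraries. Most of that sum came from Epcam, at 39.2 ± 13.3 and 46.5 ± 6.05 FPKM, and Emx2, at 37.3 ± 8.98 and 33.4 ± 3.89 FPKM. Ovgp1 was near level, at 2.20 ± 0.507 and 2.30 ± 0.758 FPKM (SD, n = 3 each). By log2 fold change 6 of the 8 tested were higher in the cKO libraries and 2 were lower. Of the 8 tested, 0 passed the adjusted threshold, 4 had an unadjusted p under 0.05 (3.04% of all tested genes did), and 3, or 37.5%, had groups without overlap, beside 7.88% of all tested genes. The list's median log2 fold change was 0.42, and 0.35 without WT replicate 1.

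The 3 markers without overlap were all at higher levels in the cKO libraries. Pax8, a paired-box transcription factor gene, measured 2.50, 1.46 and 1.43 FPKM in the WT libraries and 4.34, 2.96 and 3.74 FPKM in the cKO libraries. Cldn3, a claudin gene, measured 0.591, 0.866 and 1.09 FPKM in the WT libraries and 4.15, 2.63 and 3.38 FPKM in the cKO libraries (limma adjusted p = 0.883). Foxj1, a regulator of motile cilia, was at 0.581, 0.396 and 0.278 FPKM in the WT libraries and at 1.12, 1.03 and 1.23 FPKM in the cKO libraries. Foxj1 thus entered the test only through its cKO level, as did Cldn3 but for WT replicate 3. So these 2 genes add no support to the share of 37.5%, to the 4 genes at an unadjusted limma p under 0.05 or to the list's median. None of the list was at 0 in all libraries. The higher Ptgds libraries were cKO replicates 2 and 3, while Pax8, Cldn3 and Foxj1 were above the WT range in all 3 cKO libraries. The part of these markers in the levels of Ptgds, Sox8 or Sox9 was not tested.

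**Figure D4:**
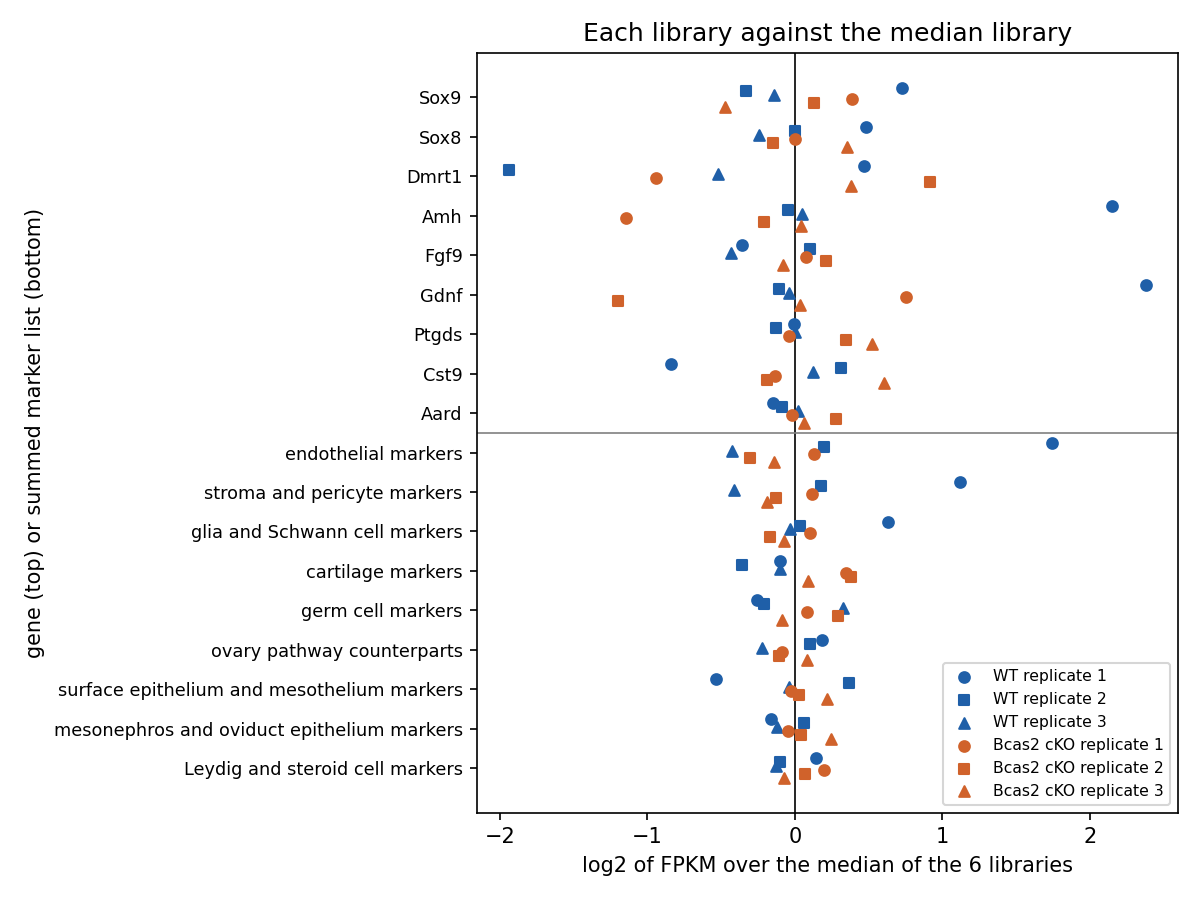
Log2 of the FPKM in each library over the median of the 6 libraries, for the 9 testis pathway genes (top) and for the summed FPKM of 9 marker lists (bottom), WT blue and Bcas2 cKO orange. WT replicate 1 stands at 2.15 for Amh, 2.38 for Gdnf, 1.74 for endothelial and 1.12 for stroma and pericyte markers, and at −0.84 for Cst9.

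The genes whose profiles over the 6 libraries were most like those of the expressed members were found among 8726 tested protein-coding genes with a mean of at least 5 FPKM. Likeness was the root mean square difference between profiles of log2(FPKM + 1), each centred on its own mean, and no test was made, since close matches arise among so many genes over 6 points. For Sox9 these were Akr1cl (0.035), an aldo-keto reductase gene whose level ran from 230.4 FPKM in WT replicate 1 to 145.3 FPKM in WT replicate 2, and Alkbh1 (0.072). For Sox8 they were Limd1 (0.033) and Tmbim1 (0.041), and for Fgf9 Gpr137 (0.022) and Slc66a2 (0.029). Ptgds was matched by Ifi27 (0.047) and Slc25a33 (0.076). For Cst9 they were the complement gene C2 (0.062), at 7.38 FPKM in WT replicate 1 and 12.1 to 17.7 FPKM elsewhere, and Rnf144b (0.072). Aard was matched by Hcfc1r1 (0.020) and Zfand6 (0.024). The log2(FPKM + 1) scale understates changes at low levels, so a low gene can match an abundant gene that varied less. Sox9 ran from 0.794 to 1.83 FPKM, and its match Akr1cl from 145.3 to 230.4 FPKM.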

How the data were processed

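Per the submitters' processing notes, reads were aligned with HISAT2 2.0.5, with mm10 and GRCm39 named as builds. The coordinates in the deposited table carry GRCm39 sequence accessions. The counting tool, annotation, strand setting and filters are all not given in the sources used here. The authors deposited FPKM values for 47122 gene models in 6 libraries, with gene length. Columns were matched to samples by the description labels and groups taken from the titles.

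FPKM times gene length, divided by 1 step per library, gave whole reads for 100% of values above 0 (tolerance 0.05). These recovered reads served for Poisson intervals and limma-voom. Median-of-ratios factors of the deposited FPKM were equal in all libraries (1.0007), so that scaling alternative could not change a value. Replicates differed by more than sampling noise (chi-square per degree of freedom 13.3 to 66.6 over the 6 pairs). Nothing says that replicates are separate animals, so p-values measure the spread between samples, which may be technical.

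Genes with at least 1 FPKM in at least 3 libraries (14589, of them 12394 protein-coding) were tested on log2(FPKM + 1) with limma 3.58.1 in R 4.3.3 (trend, two-sided, Benjamini-Hochberg over all tested genes, threshold 0.05). The procedure was tested on simulated reads in which no library stood apart, unlike in these data. Alternatives were pseudocounts of 0.1 and 0.5, no filter, a filter at 5 FPKM, TPM, median-of-ratios, a replicate block, limma-voom and leaving out each library.

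The genes and lists were chosen with earlier results of these data known. Named genes were the members, Bcas2, Sry, Sox10, the 4 most abundant genes and up to 2 more with the smallest p of each list, neighbours within 1 kb and the 2 closest profiles. Others named (Mro, Ptgdr, Ptgdr2, Gfra1, Ret, Fshr, Etd, Insl3 and Gapdh) were chosen after their values were seen. Promoters came from the RefSeq table of GRCm38.p6, matched by gene identifier.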

Additional observations from a re-analysis of the deposited data

How the results depend on the processing

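No alternative gave any of the 9 genes an adjusted p under 0.05 in limma. For Amh, Gdnf and Dmrt1 an adjusted p existed only in fits without the filter, on all 6 libraries and on leaving out each. The count of genes past the threshold over the whole table stayed at 0 in all alternatives that keep the 6 libraries, and was 0 to 1 when a library was left out (1 without cKO replicate 2). The count of members taken as expressed was 6. It became 3 at a level of 2 FPKM, 7 at 0.5 FPKM and 7 on rescaling to TPM, and stayed at 6 on leaving out each library. Signs of small differences turned: for Sox8 the log2 fold change was 0.034 with limma-voom on recovered reads, and over the leave-one-out fits it ran from −0.12 to 0.12. Over the same fits it ran from −0.16 to 0.14 for Sox9 and from −0.097 to 0.35 for Cst9, while Fgf9 (0.11 to 0.25), Ptgds (0.17 to 0.42) and Aard (0.091 to 0.24) kept their sign. With a pseudocount of 0.1, differences of the 3 low genes were larger: 0.48 for Dmrt1, −0.996 for Amh and −0.59 for Gdnf, against 0.12, −0.49 and −0.19. List medians over the leave-one-out fits, added after seeing the data, ran from −0.29 to 0.0071 for receptors and partners, −0.198 to −0.018 for testis determination genes, 0.095 to 0.17 for Sertoli cell genes and −0.17 to −0.0073 for ovarian counterparts.

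With the replicate block, the count of genes past the threshold was 0, and the fold changes of the 6 tested members equal those without it. Same-numbered libraries correlated at 0.22, 0.014 and −0.028 in their deviations from the group means, so the numbers were not taken as pairs. Under the filter at 5 FPKM, 4 of the 6 tested genes dropped out. That filter, limma-voom and the replicate block gave no value for Amh, Gdnf and Dmrt1. Depth limits these 3 most, with 139, 124 and 71 reads in sum over the 6 libraries.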
